A study of Mus musculus with 10 samples.

Results

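The 10 genes described here are the transcription factor gene Nfe2l2, which encodes NRF2, and 9 antioxidant genes that are commonly measured as its targets or as parts of the glutathione system, namely Nqo1, Hmox1, Gclc, Gclm, Gsr, Txnrd1, Srxn1, Gpx2 and Slc7a11. They were chosen by symbol among the 24062 genes listed for each pancreas library, and all 10 were found. RNA of whole pancreas was sequenced from 5 WT and 5 KSR23 mice at P5 (postnatal day 5), with 1 library per mouse, and both groups were of the C57BL/6 strain. KSR23 mice carry R23, an IL-23 cassette at the ROSA26 locus behind a floxed stop, together with hK14-cre, a Cre recombinase driven by the human keratin 14 promoter, so that IL-23 is made in keratinocytes and other keratin 14-positive cells and not by design in the pancreas. The control mice are labelled wild type and were littermates, and whether they carried either allele alone is not given in the sources used here. The comparison addresses how IL-23 made in the skin from early life affects gene expression in the newborn pancreas.

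NRF2 is kept low in resting cells by KEAP1, an adaptor that delivers it to a ubiquitin ligase. When reactive molecules modify KEAP1, NRF2 builds up, enters the nucleus, pairs with small MAF proteins and binds antioxidant response elements near its target genes, while BACH1 competes for the same sites. Its targets make and recycle glutathione and thioredoxin, the main thiol reductants of the cell, and detoxify quinones and heme. Acinar cells, the enzyme-secreting cells that make up most of the pancreas, form many disulfide bonds while they fold digestive enzymes and use glutathione heavily.

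The antioxidant response element can be seen in the promoters of some of these genes, and short windows with this element, and with the AP-1 and STAT motifs, are shown because the element defines the group and the other motifs belong to inflammatory signals. RefSeq promoters (GRCm38.p6, 250 bases before to 50 bases after each start) were matched for 7 of the 10 genes, which gave 9 promoters, and none was held for Gclc, Gsr and Hmox1. The core motif TGACNNNGC, searched on both strands, was found in the promoters of Gclm, Nfe2l2, Srxn1 and Txnrd1, or 4 of 9 member promoters, and in 12.4% of all 32851 promoters. In Srxn1 this match lay 28 bases after the start, in the transcribed part, and is not shown. The AP-1 motif TGANTCA, which resembles part of this element, was found in 7.81% of all promoters and among the members in that of Srxn1, which held it at 102 and at 45 bases upstream of the start. The match at 45 bases is followed by GC, so that TGAGTCAGC differs from the core TGACNNNGC only in having G for C. This variant of the core was not searched for, so the label AP-1 does not set the stretch apart from an antioxidant response element. The STAT motif TTCNNNGAA, bound by STAT3 and related factors downstream of cytokine receptors, was found in 8.30% of all promoters and in those of Slc7a11 and Txnrd1. Each sequence below reads 5′ to 3′ on the strand of the gene, with the motif in capitals, which for Gclm and Txnrd1 is the reverse complement of the core. None of these motif matches overlapped another, a match of letters does not show binding, and the absence of a match in this window for Gpx2 and Nqo1 says only that these letters are not in it.
Nfe2l2, antioxidant response element core 240 bases upstream of the start, chr2:75704887-75704911, minus strand: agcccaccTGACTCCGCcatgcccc
Gclm, antioxidant response element core 134 bases upstream, chr3:122245415-122245439, plus strand: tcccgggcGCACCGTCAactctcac
Txnrd1, antioxidant response element core 92 bases upstream of one of its 3 starts, chr10:82859106-82859130, plus strand: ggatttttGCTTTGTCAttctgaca
Srxn1, the nearer of its AP-1 motifs, 45 bases upstream, chr2:152105471-152105493, plus strand: attcacccTGAGTCAgcggccgg
Slc7a11, STAT motif 183 bases upstream, chr3:50443780-50443804, minus strand: atgctttgTTCTGGGAAatgctttg

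The pancreas libraries held between 26830235 and 33189132 reads counted on genes in WT mice and between 16715976 and 57784136 in KSR23 mice, and KSR23 replicate 3 was the smallest. Alignments that were not unique, which are not counted on genes, were tallied at 28599887 to 38736114 in WT and 11156558 to 39778810 in KSR23 mice. They outnumbered the reads counted on genes in every WT library and were fewer in every KSR23 library. No scaling used here includes them, and their part in the group differences was not tested. Levels are given in CPM, counts relative to the reads of the library counted on genes that passed the filter given below, with library sizes scaled by the TMM method. The summed level of 9 acinar marker genes was between 205000 and 229000 CPM in WT mice and between 151000 and 186000 CPM in KSR23 mice, so the libraries carry the markers of the labelled tissue. Il23a, which encodes the IL-23 subunit p19, had 0.0373 to 0.316 CPM in WT mice and 0.857 to 1.21 CPM in KSR23 mice, too few counts to enter the test. KSR23 replicate 3 stood apart in blood cell markers. Its 7 listed erythroid markers summed to 188 CPM against 22.5 to 42.1 CPM in the other KSR23 mice, and its 7 listed neutrophil markers to 353 CPM against 36.6 to 79.1 CPM, so calls of the genes named below that changed without this mouse are given both ways.

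All 10 genes passed the filter of at least 5 counts in every library, which 13882 genes passed. In edgeR's quasi-likelihood test of KSR23 against WT, a gene was called where its Benjamini-Hochberg adjusted p over all 13882 genes was under 0.05. Of the 10 genes, 3 rose in KSR23 mice (Gpx2, Gclc and Txnrd1), 1 fell (Slc7a11) and 6 were not called (Nfe2l2, Gclm, Gsr, Srxn1, Nqo1 and Hmox1). Over all genes, 16.2% were called higher and 14.8% lower. The same 4 genes were those without overlap between the groups in CPM, 3 above and 1 below, where 10.7% of all genes lay wholly above and 8.74% wholly below WT. The median log2 FC (log2 fold change, KSR23 against WT) of the 10 genes was -0.12 and 6 of them were below 0, with a median of -0.01 over all genes. The 10 genes therefore did not move one way. Under scaling by library totals (of the reads counted on genes that passed the filter), 3075 genes were called higher and 1161 lower, against 2250 and 2049 with TMM scaling. Nfe2l2 then joined the genes called higher.

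**Figure D1:**
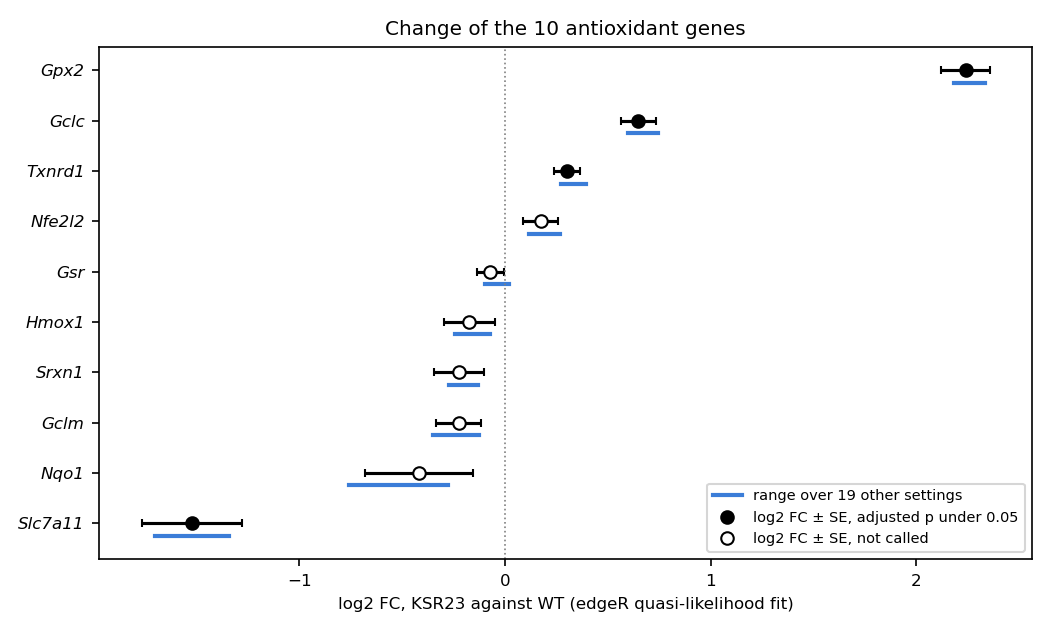
The log2 FC of each of the 10 genes, KSR23 against WT, with its standard error, filled where the adjusted p was under 0.05 and open where it was not. The blue bar under each point spans the values under 19 other settings of the analysis. Gpx2 stands at 2.24 and Slc7a11 at -1.52, with the other 8 genes between -0.42 and 0.65.

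Nfe2l2 (chr2:75675513-75704641, minus strand, GRCm38) encodes NRF2 itself, which is controlled mainly through the stability of the protein, so that its mRNA need not follow its activity. Its level was 53.2, 53.1, 47.1, 42.1 and 41.0 CPM in WT replicates 1 to 5. In KSR23 replicates 1 to 5 it was 54.5, 52.9, 58.2, 47.1 and 54.1 CPM. The groups overlapped, since WT replicates 1 and 2 lay above 2 of the KSR23 mice. The means of Nfe2l2 were 47.3 ± 5.80 and 53.4 ± 4.02 CPM (WT and KSR23, SD, n = 5 each), and its log2 FC of 0.17 ± 0.0847 (SE) was not called (edgeR adjusted p = 0.131). Of 19 other settings it was called in 1, with library totals as the scale (log2 FC 0.27, adjusted p = 0.0361).

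Gclc and Gclm encode the catalytic and the modifier subunit of glutamate-cysteine ligase, the enzyme that carries out the first and rate-limiting step of glutathione synthesis. Gclc (chr9:77754535-77794485, plus strand) was at 34.1, 34.8, 31.3, 31.6 and 32.7 CPM in the WT mice. Its level in the KSR23 mice was 55.6, 58.4, 48.1, 54.2 and 41.6 CPM. Every KSR23 mouse lay above every WT mouse, and the KSR23 mice were more spread. Gclc rose from 32.9 ± 1.55 to 51.6 ± 6.75 CPM (SD, n = 5 each), or 1.57-fold (log2 FC 0.65 ± 0.0862 SE, edgeR adjusted p = 1.58e-05).

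The modifier subunit did not rise with it. Gclm (chr3:122245557-122270732, plus strand) was at 31.0, 28.9, 28.3, 33.9 and 30.4 CPM in the WT mice and at 20.7, 24.4, 35.6, 25.7 and 24.8 CPM in the KSR23 mice. KSR23 replicate 3 was the highest of all 10 mice, while the other 4 KSR23 mice lay below every WT mouse. Over all mice Gclm had a log2 FC of -0.23 ± 0.111 (SE) and was not called (edgeR adjusted p = 0.133). Without KSR23 replicate 3 it was called lower, with a log2 FC of -0.35 ± 0.0880 (adjusted p = 0.00553), in a fit where 14.0% of 14036 tested genes were called lower and 15.7% higher. Exons of Gclm share 540 bases with 2 annotated non-coding genes, of which 296 bases lie opposite an antisense transcript, and the strand setting of the counting is not given in the sources used here.

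The balance of the subunits was taken as the log2 ratio of the counts of Gclm to those of Gclc within each library, a value that does not depend on how libraries are scaled. In WT replicates 1 to 5 this log2 ratio was -0.140, -0.268, -0.145, 0.101 and -0.104. It was -1.42, -1.26, -0.433, -1.08 and -0.744 in the KSR23 mice. All 5 KSR23 mice lay below all 5 WT mice, and KSR23 replicate 3 was the closest to them. The mean log2 ratio fell from -0.11 ± 0.134 to -0.99 ± 0.400 (SD, n = 5 each), a difference of -0.88 (exact two-sided permutation over mice, p = 0.00794, which is the least this design can give, and p = 0.00794 adjusted over 3 ratios). Without KSR23 replicate 3 the difference was -1.01.

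Slc7a11 encodes xCT, the light chain of the cystine/glutamate antiporter that brings in cystine for glutathione synthesis, and it is a target of both NRF2 and ATF4, the transcription factor of the integrated stress response. It was the 1 gene of the 10 that was called lower. Slc7a11 (chr3:49892526-50443614, minus strand) was at 4.52, 4.70, 6.64, 4.19 and 2.16 CPM in the WT mice and at 1.36, 1.66, 1.06, 1.62 and 1.88 CPM in the KSR23 mice. The groups did not overlap, although WT replicate 5 lay close to KSR23 replicate 5, and the lowest library, KSR23 replicate 3, held 19 counts. Slc7a11 fell from 4.44 ± 1.59 to 1.515 ± 0.312 CPM (SD, n = 5 each), to 0.348 of the WT level, with a log2 FC of -1.52 ± 0.244 (SE, edgeR adjusted p = 0.000117), and ranked 71 from the bottom of the 13882 log2 FC values. Its call was kept under each of the 19 other settings. In this bulk tissue, fewer cells that express a gene and less RNA of it per cell cannot be told apart, here and for the other genes.

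The heavy chain of the same antiporter, Slc3a2, which also serves other amino acid transporters, was not called (178 ± 15.9 CPM in WT, 190 ± 23.9 CPM in KSR23, log2 FC 0.09, edgeR adjusted p = 0.421). The log2 ratio of Slc7a11 to Slc3a2 counts was -5.47, -5.24, -4.69, -5.44 and -6.17 in the WT mice. In the KSR23 mice it was -7.16, -6.79, -7.28, -6.72 and -6.92. The ranges of this ratio did not meet, and its mean fell by 1.57 on the log2 scale (exact two-sided permutation, p = 0.00794, adjusted over 3 ratios p = 0.00794).

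**Figure D2:**
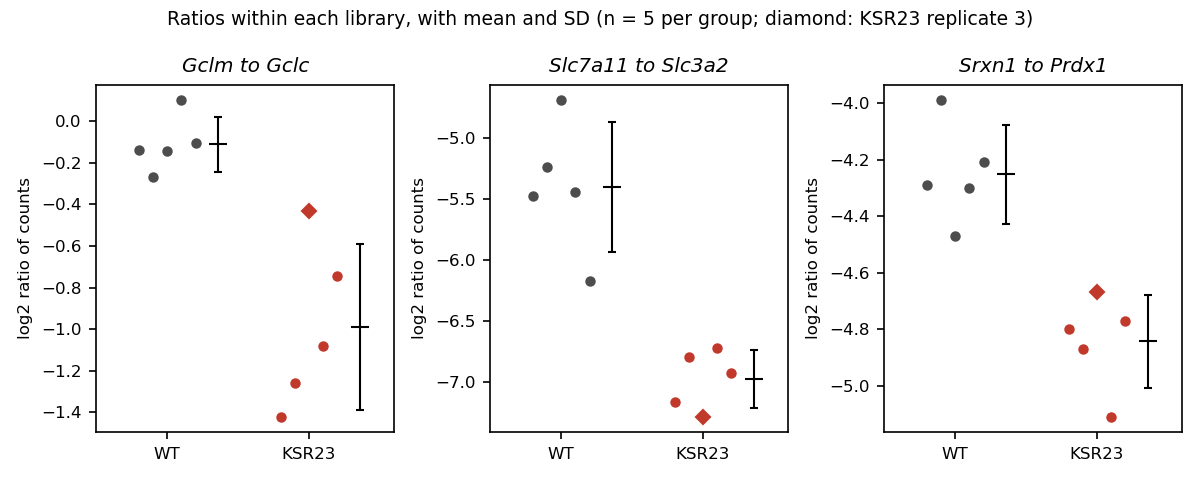
Log2 ratio of counts within each library for Gclm to Gclc, Slc7a11 to Slc3a2 and Srxn1 to Prdx1, with 1 point per mouse and the mean and SD beside each group of 5. In all 3 panels every KSR23 mouse lies below every WT mouse, and KSR23 replicate 3, drawn as a diamond, lies nearest to WT for Gclm to Gclc (-0.433).

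Gsr encodes glutathione reductase, which returns oxidized glutathione to its reduced form with NADPH. Gsr (chr8:33652523-33698163, plus strand) was at 63.5, 56.8, 63.2, 58.4 and 63.5 CPM in WT and at 55.7, 55.8, 61.5, 55.3 and 62.5 CPM in KSR23 mice. The groups overlapped over most of their range. Its mean was 61.1 ± 3.22 against 58.2 ± 3.53 CPM (SD, n = 5 each), and the log2 FC of -0.07 ± 0.0662 (SE) was not called (edgeR adjusted p = 0.448) and was 0.02 with libraries scaled by their total.

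Txnrd1 encodes the cytosolic thioredoxin reductase, the selenoenzyme that keeps thioredoxin reduced. Txnrd1 (chr10:82833951-82897712, plus strand) was at 49.9, 48.4, 49.6, 50.7 and 50.3 CPM in the WT mice, the narrowest spread relative to the mean among the 10 genes. Its values in the KSR23 mice were 63.4, 57.0, 60.1, 66.3 and 59.8 CPM. All KSR23 mice lay above all WT mice. Txnrd1 rose 1.23-fold, from 49.8 ± 0.875 to 61.3 ± 3.59 CPM (SD, n = 5 each), with a log2 FC of 0.30 ± 0.0629 (SE, edgeR adjusted p = 0.00143).

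Srxn1 encodes sulfiredoxin, which repairs over-oxidized peroxiredoxins. It was at 12.3, 15.3, 10.9, 12.6 and 11.3 CPM in WT and at 11.7, 10.5, 11.9, 8.24 and 11.2 CPM in KSR23 mice, and the groups overlapped. Srxn1 (chr2:152105516-152111376, plus strand) had means of 12.5 ± 1.71 and 10.7 ± 1.49 CPM (SD, n = 5 each) and was not called (log2 FC -0.22 ± 0.120 SE, edgeR adjusted p = 0.169). Prdx1, which encodes a peroxiredoxin that sulfiredoxin repairs, rose from 236 ± 15.1 to 306 ± 14.7 CPM (log2 FC 0.37, edgeR adjusted p = 0.000235). The log2 ratio of Srxn1 to Prdx1 counts ranged from -4.47 to -3.99 in WT and from -5.11 to -4.67 in KSR23 mice, without overlap. Its mean fell by 0.595 (exact two-sided permutation, p = 0.00794, adjusted over 3 ratios p = 0.00794).

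Gpx2, a selenium-dependent glutathione peroxidase known mainly from the epithelium of the gut, rose the most of the 10. Gpx2 (chr12:76792333-76795554, minus strand) was at 3.79, 3.37, 3.06, 3.42 and 2.94 CPM in the WT mice. In KSR23 mice it was at 16.7, 13.8, 14.2, 15.6 and 17.9 CPM. The lowest KSR23 mouse stood well above the highest WT mouse. Gpx2 went from 3.31 ± 0.332 to 15.6 ± 1.74 CPM (SD, n = 5 each), or 4.72-fold, with a log2 FC of 2.24 ± 0.117 (SE, edgeR adjusted p = 9.85e-11), and ranked 55 from the top of all 13882 log2 FC values. It lies within Fntb on the opposite strand without sharing exon bases, and 89.7% of the 75-base windows of its longest coding transcript occur in no other annotated gene, against 100% for each of the other 9 genes.

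Since Gpx2 is a gut gene, markers of intestinal epithelium were read beside it. The 10 markers of this list summed to between 5.43 and 8.31 CPM in WT and between 8.11 and 13.4 CPM in KSR23 mice. Most of this was Vil1, with means of 6.23 CPM in WT and 8.33 CPM in KSR23 mice, so the sum mainly follows this gene. Of the 10 markers 2 had enough counts to be tested. Vil1 was called higher (edgeR adjusted p = 0.0336), a call lost without KSR23 replicate 3 (adjusted p = 0.0702). Fabp2, Alpi and Fabp1, which define absorptive enterocytes, were highest in KSR23 replicate 2 (1.63, 1.87 and 1.30 CPM). They were at most 0.392 CPM in any other mouse. Gpx2 was at 13.8 CPM in KSR23 replicate 2 and at 14.2 to 17.9 CPM in the other KSR23 mice. The part of intestinal tissue in the level of Gpx2 was not tested. Markers of duct cells also differed between the groups. Of 9 duct markers 8 were called higher, and Krt19 was not called (log2 FC -0.05, edgeR adjusted p = 0.663). The sum of the 9 was between 1470 and 1580 CPM in WT and between 2300 and 2520 CPM in KSR23 mice. Its largest part was Spp1, with means of 754 CPM in WT and 1308 CPM in KSR23 mice. Of 9 acinar markers 7 were called lower and 1 higher, where 16.2% of all genes were called higher and 14.8% lower. The part of these shifts in the changes of Gpx2, Gclc, Txnrd1 and Slc7a11 was not tested.

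Nqo1 and Hmox1, the members most used as reporters of NRF2 activity, did not rise. Nqo1 (chr8:107388225-107403206, minus strand), which encodes a quinone reductase, was at 2.63, 2.88, 3.06, 3.16 and 2.57 CPM in the WT mice and at 1.79, 2.19, 4.36, 1.47 and 1.36 CPM in the KSR23 mice. KSR23 replicate 3 was the highest of the 10 mice, and the other 4 KSR23 mice lay below every WT mouse, the same arrangement as for Gclm. Nqo1 had means of 2.86 ± 0.259 and 2.23 ± 1.23 CPM (SD, n = 5 each) and was not called with all mice (log2 FC -0.42 ± 0.264 SE, edgeR adjusted p = 0.245). Without KSR23 replicate 3 its log2 FC was -0.76 ± 0.205 (adjusted p = 0.00892), a call lower. Its counts ranged from 59 to 98 per library, so each single value carries counting error of its own.

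The mouse in which Nqo1 and Gclm were high is the one with high blood cell markers. Its sum of erythroid markers, 188 CPM, stood above the WT range of 25.0 to 97.1 CPM, and that of neutrophil markers, 353 CPM, above the WT range of 11.1 to 40.0 CPM. None of the 3 erythroid markers that could be tested was called with all mice (all 3 were called lower without this mouse), and 4 of the 7 listed were at 0 in every library. Of the 7 neutrophil markers 5 were called higher, with and without this mouse. Over all genes 16.2% were called higher and 14.8% lower with all mice, and 15.7% and 14.0% without this mouse. The part of blood cells in the values of Nqo1 and Gclm in KSR23 replicate 3 was not tested.

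**Figure D3:**
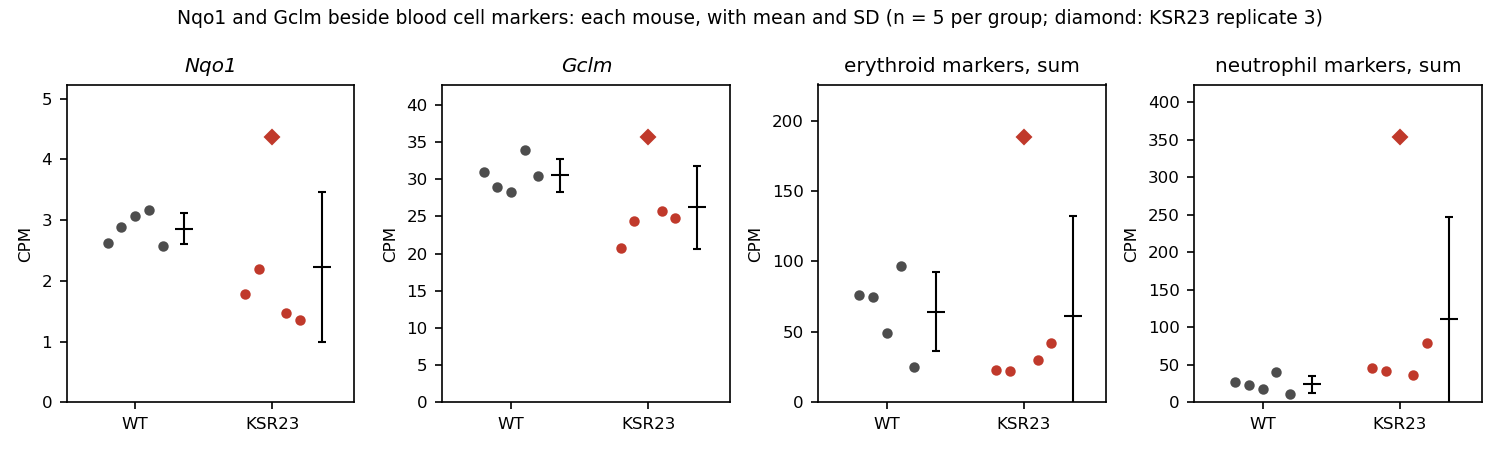
Level in CPM of Nqo1, of Gclm and of the summed erythroid and neutrophil markers, with 1 point per mouse and the mean and SD beside each group of 5, where an SD bar that passes 0 is drawn to 0. KSR23 replicate 3, the diamond, is the highest of the 10 mice in all 4 panels, with 4.36 CPM of Nqo1 and 35.6 CPM of Gclm.

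Hmox1 (chr8:75093621-75100589, plus strand) encodes heme oxygenase 1, which breaks down heme and is strongly induced in many inflamed tissues. It was at 10.2, 11, 11.8, 12.7 and 9.72 CPM in WT and at 11.4, 9.84, 11, 9.81 and 7.32 CPM in KSR23 mice. KSR23 replicate 5 was the lowest of all, and the other KSR23 mice lay within the WT range. Hmox1 was not called (log2 FC -0.17 ± 0.124 SE, edgeR adjusted p = 0.306).

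**Figure D4:**
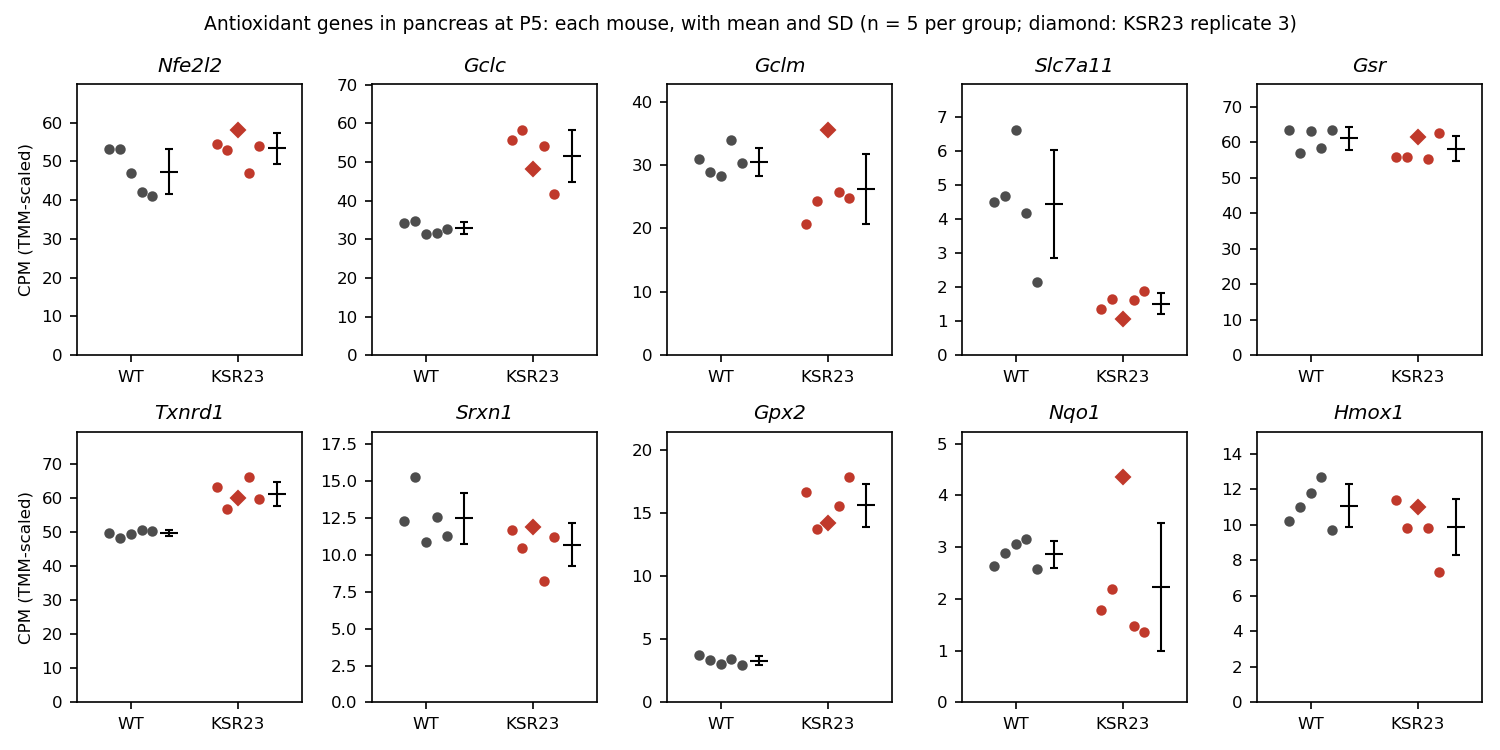
Level of each of the 10 genes in CPM with TMM-scaled library sizes, with 1 point per mouse and the mean and SD beside each group of 5 (each axis starts at 0). Gpx2, Gclc and Txnrd1 lie wholly higher and Slc7a11 wholly lower in KSR23 mice, and KSR23 replicate 3, the diamond, is the highest mouse for Gclm and Nqo1.

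To set the genes beside each other, levels were divided by the length of the longest coding transcript. Per kilobase, Gsr (22.9 CPM in WT and 21.8 CPM in KSR23 mice) and Nfe2l2 (19.1 and 21.6 CPM) were the highest, and in KSR23 mice they differed by less than the spread between mice of either gene. Slc7a11 was the lowest in both groups, with 0.482 and 0.164 CPM per kilobase. Gpx2 moved most in this order. In WT mice it was eighth, with 3.11 CPM per kilobase, between Srxn1 (4.44) and Nqo1 (1.84), and in KSR23 mice it reached 14.7 CPM per kilobase, beside Gclc (15.1) and Txnrd1 (16.9). In KSR23 mice the per-kilobase levels of Gpx2 and Gclc differed by less than the spread between mice of either gene.

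The genes around these 10 were read in 8 lists with 139 genes, of which 130 could be tested. Of them 32 (24.6%) were called higher and 33 (25.4%) lower, with 16.2% and 14.8% over all genes, and their median log2 FC was -0.02. With libraries scaled by their total, 41 were called higher and 20 lower. Without KSR23 replicate 3, Ugt1a6a, G6pdx and Phgdh lost their calls, Chac1, Gpx3 and Blvrb were called lower and Txnip was called higher. The lists differed in which way their called genes lay.

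Among 14 partners and regulators of NRF2, 6 rose and 1 fell, with a median log2 FC of 0.19. The largest rises were those of Trim21 (log2 FC 0.72), an E3 ubiquitin ligase that binds SQSTM1, and of Maff (0.69) and Mafk (0.50), small MAF proteins that pair with NRF2. Sqstm1, the autophagy receptor p62 that sequesters KEAP1, rose by a log2 FC of 0.46. Keap1 itself had 38.1 ± 3.61 CPM in WT and 39.6 ± 3.90 CPM in KSR23 mice (log2 FC 0.06, edgeR adjusted p = 0.654). Bach1 was at 3.62 ± 0.282 and 3.58 ± 1.34 CPM, with a log2 FC of -0.03 whose sign changed with the scaling and with single mice (edgeR adjusted p = 0.927). The 1 gene called lower was Rbx1 (-0.24), the RING subunit of the ligase that KEAP1 serves. No gene of this list was called lower under 2 of the 19 other settings, 1 of them without WT replicate 1.

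In glutathione synthesis and turnover 4 of 14 genes rose and 1 fell, with a median log2 FC of 0.19. Gss, which encodes the second enzyme of glutathione synthesis, rose together with Gclc, from 13.8 ± 1.52 to 17.6 ± 0.808 CPM (log2 FC 0.35, edgeR adjusted p = 0.00760). Oplah, which opens 5-oxoproline to glutamate in glutathione breakdown, rose by a log2 FC of 0.88 and Anpep, an aminopeptidase that cleaves the cysteinylglycine released from glutathione, by 0.44. Chac2, a glutathione-degrading enzyme, fell by 0.490. Its relative Chac1, also an ATF4 target, was not called with all mice (log2 FC -0.94, edgeR adjusted p = 0.0622) and was called lower without KSR23 replicate 3 (log2 FC -1.07, adjusted p = 0.0382). The number called lower was 2 under 5 of the 19 other settings, among them without WT replicate 5, KSR23 replicate 3 or KSR23 replicate 5.

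The glutathione peroxidases and transferases other than Gpx2 lay mostly the other way. Of 24 tested genes 11 fell and 3 rose, with a median log2 FC of -0.28. The largest falls were those of Gstm3 (log2 FC -2.05), Gstm1 (-1.03) and Gstk1 (-0.83), which conjugate or reduce with glutathione. Gstm3 had few counts, between 6 and 32 per library. Gstm1 went from 227 ± 9.33 to 111 ± 11.3 CPM without overlap (edgeR adjusted p = 4.46e-09). The transferases that rose were Gsta4 (0.42), Mgst1 (0.36) and Gstt2 (0.25). Gpx1 had a log2 FC of 0.10 that turned to -0.14 without KSR23 replicate 3, where it stood at 366 CPM against 185 to 193 CPM in the other KSR23 mice, and it was not called (edgeR adjusted p = 0.647). Gpx4, the peroxidase of lipid hydroperoxides, had a log2 FC of -0.23 (edgeR adjusted p = 0.0340), a call that was lost under 8 of the 19 other settings. With libraries scaled by their total, 7 of the list were called lower.

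**Figure D5:**
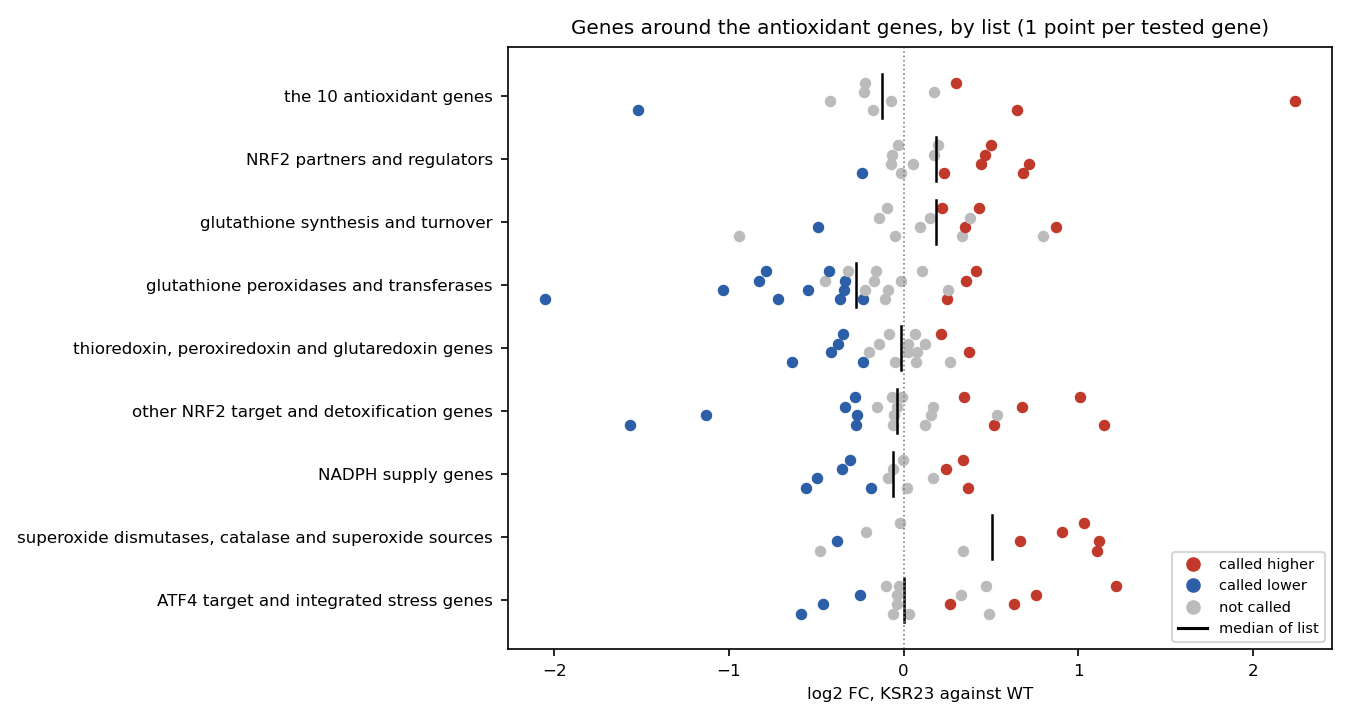
Log2 FC, KSR23 against WT, of each tested gene in the list of 10 antioxidant genes and in the 8 lists around it, coloured by the edgeR call, with a bar at the median of each list. The peroxidases and transferases have 11 genes called lower and a median of -0.28, and the superoxide list has 5 called higher and a median of 0.505.

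Of 18 thioredoxin, peroxiredoxin and glutaredoxin genes, 2 rose and 5 fell, with a median log2 FC of -0.01. Prdx1 and Prdx6 (0.22) were the 2 that rose. Prdx4, the peroxiredoxin of the endoplasmic reticulum, fell by 0.639, and the methionine sulfoxide reductases Msra (-0.42) and Msrb1 (-0.38) fell as well. Txn1, the substrate of Txnrd1, was at 84.8 ± 8.76 CPM in WT and 72.2 ± 4.58 CPM in KSR23 mice (log2 FC -0.23, edgeR adjusted p = 0.0255), a call lost under 4 of the 19 other settings. Without WT replicate 4, 1 gene of this list was called higher and 3 lower, and 1 was called higher without WT replicate 5 or KSR23 replicate 5.

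Among 21 other NRF2 target and detoxification genes 5 rose and 6 fell, with a median log2 FC of -0.04. Abcc3 (1.15) and Abcc4 (1.01), efflux pumps for conjugated compounds, and Cbr3 (0.68), a carbonyl reductase, rose the most. Ptgr1, a reductase of prostaglandins and reactive alkenals, went from 29.2 ± 1.56 to 10.02 ± 2.45 CPM (log2 FC -1.57), Aldh1a1, a retinaldehyde dehydrogenase, had a log2 FC of -1.13, and Akr1b10 one of -0.33. With libraries scaled by their total, 2 of the list were called lower. The ferritin genes Ftl1 (log2 FC -0.06, and 0.03 with libraries scaled by their total) and Fth1 (-0.15) were not called (edgeR adjusted p = 0.569 and 0.140).

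Of 13 genes for NADPH supply 3 were called higher and 5 lower, with a median log2 FC of -0.06. The cytosolic isocitrate dehydrogenase Idh1 (log2 FC -0.56), the mitochondrial folate enzyme Mthfd2 (-0.50) and the transaldolase Taldo1 (-0.35) had the largest falls. Me1 (0.37), Mthfd1l (0.34) and G6pdx (0.24), which encodes the first enzyme of the pentose phosphate pathway, were called higher, but 1 to 3 genes of the list were when single mice were left out, and 1 without any of WT replicates 1, 3, 4 and 5 or KSR23 replicates 1, 2 and 5. G6pdx had an edgeR adjusted p of 0.0424 with all mice and 0.111 without KSR23 replicate 3.

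Superoxide dismutases, catalase and the sources of superoxide had 5 of 10 genes called higher and 1 lower, with a median log2 FC of 0.505. Of those that rose, Sod3 (1.12) encodes the extracellular dismutase, and Ncf4 (1.11), Cybb (1.04), Ncf1 (0.91) and Cyba (0.67) encode subunits of the phagocyte NADPH oxidase, which makes superoxide. Of 10 macrophage markers 6 were called higher and 1 lower, where 16.2% of all genes were called higher and 14.8% lower. The sum of the list was between 292 and 350 CPM in WT and between 312 and 452 CPM in KSR23 mice. The part of macrophages and neutrophils in the oxidase subunits was not tested. The mitochondrial dismutase gene Sod2 fell by 0.379. Sod1 (log2 FC -0.21) was not called (edgeR adjusted p = 0.0708), nor was Cat (edgeR adjusted p = 0.862), whose log2 FC of -0.02 changed sign with the scaling and with single mice.

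The genes of ATF4 and the integrated stress response, which share Slc7a11 as a target with NRF2, had 4 of 16 called higher and 3 lower, with a median log2 FC of 0.002. Cebpb (1.22), Nupr1 (0.76) and Ddit4 (0.64), which encode stress-induced regulators, rose. Asns (-0.59), which encodes asparagine synthetase, and Psat1 (-0.46) and Phgdh (-0.25) of serine synthesis were called lower, and 1 of the list was without WT replicate 2. The call of Phgdh (edgeR adjusted p = 0.0384) was lost without KSR23 replicate 3 (adjusted p = 0.0748). The share of 75-base windows found in no other annotated gene was read for the tested genes named here. It was lowest for Ugt1a6a (0.0%), Ftl1 (30.1%), Gpx4 (44.7%) and Phgdh (52.6%). Gstm3 (78.4%) and Gstm1 (85.2%) share sequence with other transferases. The counts of uniquely aligned reads of all these genes are therefore uncertain.

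Of the other cell type lists, 6 of 7 islet markers were called lower and 1 higher, and 1 of 8 markers of fibroblasts and stellate cells was called in each direction. Of 5 endothelial markers 1 was called higher and 2 lower (1 lower without KSR23 replicate 3, where Tek had an adjusted p of 0.113 against 0.0488), and of 4 tested lymphoid markers 1 was called lower. A list for neighbouring tissue held Adipoq, Plin1, Fabp4 and Alb, and no gene particular to lymph node. Its tested genes, Fabp4 (log2 FC -1.33) and Alb (-0.83), were both called lower. Over all genes 16.2% were called higher and 14.8% lower, and counts such as 1 of 8 or 1 of 5 lie near these shares. These lists describe the tissue in which the 10 genes were measured, and their part in the results was not tested.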

How the data were processed

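The authors primed 100 pg of pancreas total RNA with oligo-dT using SMART-Seq v4 (15 PCR cycles), prepared Nextera XT libraries (12 cycles) and read single ends of 75 bp. They aligned with TopHat 2.1.0 against mm10, and the files they deposited hold raw counts per gene from htseq-count (HTSeq 0.6.1p1 in the submitters' processing notes, which also name FastQC and edgeR 3.18.1). The annotation file and strand setting are not given in the sources used here. No molecular identifiers were named, so PCR copies count separately, and the floor of 3 counts per library (0.0536 to 0.168 CPM) covers counting error only.

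Groups came from the labels, 5 mice each. After the filter (5 counts or more in each of the libraries), counts were scaled by TMM and tested with the quasi-likelihood F test of edgeR 4.0.16 in R 4.3.3, with Benjamini-Hochberg adjustment over all genes. The script was tested on simulated data. Ratios within libraries used 0.5 added to each count and an exact two-sided permutation over the 252 splits. The least chi-square per degree of freedom between libraries of a group was 11.9, so none is a copy of another. That each replicate is a separate mouse rests on the labels and methods. Same-numbered mice of the groups did not deviate together (correlations from -0.111 to 0.0661).

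The members and the gene lists were chosen with earlier results of these data known. Named genes are all 10 members, up to 3 called genes with the largest rise and fall in each list around them, cell type markers beside a member they bear on, and 12 partners whatever their values (Keap1, Bach1, Gss, Slc3a2, Gpx1, Gpx4, Txn1, Prdx1, Ftl1, Fth1, Sod1 and Cat). Sqstm1, Ncf1, Cyba, Chac1, Tek, Ugt1a6a, Gpx3, Blvrb, Txnip, Krt19, Spp1, Adipoq, Plin1, Fabp4 and Alb were added after their values were seen. Alternatives were edgeR's likelihood ratio test, DESeq2 1.42.0, other scalings and filters, a block for the replicate number, and the omission of single mice. Positions are those of GENCODE M21 on GRCm38, and promoters those of RefSeq on GRCm38.p6.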

Additional observations from a re-analysis of the deposited data

Results flagged for a closer look

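Nqo1 in KSR23 replicate 3 stood far from the rest of its group, at 4.36 CPM against 1.36 to 2.19 CPM in the other 4 KSR23 mice. Its gap to the nearest of them was 0.722 of the range of the group, past the critical value of 0.71 of Dixon's test for 5 samples. It was the 1 such value among 26 groups of 5 values examined, where chance alone gives about 1.3. The same mouse had the highest summed erythroid (188 CPM) and neutrophil (353 CPM) markers and the highest Gclm (35.6 CPM), and the part of these in its Nqo1 level was not tested.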

How the results depend on the processing

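Gpx2, Gclc, Txnrd1 and Slc7a11 kept their direction and their calls under all 19 alternatives, with log2 FC between 2.18 and 2.33, 0.60 and 0.74, 0.27 and 0.40, and -1.70 and -1.34. With libraries scaled by their total, 1161 of all genes and 20 genes of the lists were called lower, against 2049 and 33, and Nfe2l2 was called higher. The cause was not tested. Leaving out single mice gave 1 to 3 members called lower, where Gclm and Nqo1 joined Slc7a11 without KSR23 replicate 3. Signs changed only among the partners and members that were not called, namely with libraries scaled by their total for Gsr (0.0217 in the fit, and 0.0222 for its difference in log2 CPM), Bach1 (0.0739), Ftl1 (0.0325) and Cat (0.0759), and on leaving out single mice for Bach1 (-0.239 to 0.125), Gpx1 (-0.140 to 0.175) and Cat (-0.0613 to 0.0142).

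With the replicate number as a block, 1998 genes were called higher and 1751 lower, and 3 members higher and 1 lower, as without it. For the 3 ratios the exact sign-flip test over same-numbered mice gave p = 0.0625, the smallest that 5 pairs allow. Among the members and partners tested for it, Gpx4 lost its call with the block (edgeR adjusted p = 0.0528). Of 5 numbers 1 correlated best with its own. Correlations of 5 pairs cannot show whether the numbers mark litters or batches, which the labels do not give. Nqo1 and Slc7a11, with fewer counts than most members, are the least precise of them, and KSR23 replicate 3 was the least deeply sequenced.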
